A study of Mus musculus with 73 samples.

Results

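Sarcomatoid mammary tumours of mice with the Brca1 variant p.L1363P were set against adenocarcinomas of the same genotype, gene by gene, to find which programmes separate them. The 2 groups were taken from the genotype label KB1(L1363P)P and the histologic type, and hold 12 of the 73 tumours of the series. The sarcomatoid group has 9 tumours (10, 20, 29, 32, 37, 41, 43, 40.1 and 9.1), each labelled 0% epithelial, and the adenocarcinoma group has 3 tumours (7.2, 26.2 and 52), each labelled 100% epithelial. All tumours of both groups carry the same genotype, whose label has the form of KB1P, a mouse model in which p53 and BRCA1 are lost together in mammary epithelium. The variant lies in the coiled-coil domain through which BRCA1 binds PALB2, per the series title. The labels give no age, treatment or Cre line. Since no label ties a tumour to its mouse, the p-values reflect the spread among the tumours fitted, not among mice. Polyadenylated RNA of each mammary tumour was sequenced once per tumour in 1 run (5625), with 13950952 to 17550129 total counts per sarcomatoid tumour and 14761822 to 16207436 per adenocarcinoma.

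Sarcomatoid carcinoma is a spindle-cell form of breast cancer in which tumour cells of epithelial origin have taken on a mesenchymal shape. Epithelial cells hold a top and a bottom side through polarity complexes (Crumbs, Par and Scribble), sort membrane proteins to each side with dedicated Rab proteins and adaptors, and seal the gap between cells with tight junctions. Repressors of the Snai and Zeb families are known to bind E-box sequences in the promoters of such genes. The microenvironment differs as well between tumour types, since collagen-rich stroma, vessels and macrophages are sampled together with the tumour cells.

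Levels are CPM, the counts of a gene scaled to a common library size. For the 9 sarcomatoid tumours the lowest and highest values are given with the median, and for the adenocarcinomas the 3 values in the order 7.2, 26.2 and 52. Differences are log2 fold changes of sarcomatoid tumours over adenocarcinomas, with standard errors (SE) and p-values adjusted by the Benjamini-Hochberg method, from edgeR's quasi-likelihood test in a fit of the 29 libraries of run 5625. Besides the 12 tumours compared, that fit holds 9 carcinosarcomas of the L1363P genotype. It also holds 5 adenocarcinomas and 3 carcinosarcomas of a second genotype, titled KP. All 29 libraries share the estimate of spread behind each p-value. A gene is said to have risen or fallen in the sarcomatoid tumours where the adjusted p was under 0.05. Of 16147 genes tested, 1959 rose (12.1%) and 2986 fell (18.5%), and the median log2 fold change of all genes tested was -0.09. The split depends on the values used: with limma on the deposited log2 values 2450 genes rose and 2168 fell. Each call was repeated without each adenocarcinoma in turn, and calls that passed in all 3 of these fits are said to have held: 484 genes that rose (3.00% of those tested) and 1098 that fell (6.80%). All 9 sarcomatoid tumours lay above all 3 adenocarcinomas for 1680 genes (10.4%) and below them for 1888 (11.7%). One library of the fit went against its label: KP tumour 90.01A, labelled adenocarcinoma and 100% epithelial, correlated at 0.924 to 0.979 with sarcomatoid tumours and at 0.795 to 0.907 with the other 4 KP adenocarcinomas, and without it 2104 genes rose and 3115 fell.

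The 3 adenocarcinomas were less alike than the 9 sarcomatoid tumours. Across genes, log2 CPM correlated at 0.917 to 0.979 between sarcomatoid tumours, at 0.878 to 0.911 between adenocarcinomas and at 0.776 to 0.867 between the groups. Tumour 26.2 was the extreme adenocarcinoma most often: it was the lowest of the 3 for 50.5% of the genes that rose and the highest for 48.0% of those that fell. Without it 695 genes rose and 1795 fell, against 1285 and 2546 without tumour 7.2 and 1593 and 2667 without tumour 52. When the 9 sarcomatoid tumours were set against a single adenocarcinoma, 116 genes rose and 962 fell against 7.2, 756 and 2057 against 26.2, and 180 and 824 against 52. Of the genes that rose, 6 passed in all 3 of these fits against a single tumour, and of those that fell 238 did.

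The labels were first set against cell type markers. The summed level of 18 epithelial markers was 95.8 to 843 CPM (median 332) in sarcomatoid tumours, against 3646, 2686 and 9028 CPM in adenocarcinomas, and that of 13 mesenchymal markers was 12750 to 38070 CPM (median 22850), against 2650, 1669 and 3891 CPM. Neither sum overlapped between the groups, and no marker of either list was at 0 in a whole group. The sum of 19 monocyte and macrophage markers was 4167 to 9054 CPM (median 6612) in sarcomatoid tumours and 1888, 1002 and 1547 CPM in adenocarcinomas, and that of 14 blood vessel endothelial markers was 520 to 1194 CPM (median 601), against 380, 454 and 239.9 CPM. Other markers split the adenocarcinomas. The 12 adipocyte markers summed to 43.8 to 161 CPM in sarcomatoid tumours, against 103, 292 and 3612 CPM in adenocarcinomas, and the 10 B and plasma cell markers to 2.14 to 115 CPM, against 92.98, 346 and 12.5 CPM. Fabp4, a fatty acid binding protein, made up most of the adipocyte sum of tumour 52. It had 4.97 to 105 CPM (median 49.05) in sarcomatoid tumours, against 17.2, 134 and 3585 CPM in adenocarcinomas and fell (log2 fold change -4.60, SE 0.72, adjusted p = 1.43e-04), a call lost without adenocarcinoma 52 (adjusted p = 0.534) and a difference of opposite sign against 7.2 alone (log2 fold change 1.59). Adipoq, which defines adipocytes, had 0.182 to 2.23 CPM (median 0.641) in sarcomatoid tumours, against 1.73, 13.7 and 0.0615 CPM in adenocarcinomas, with tumour 26.2 highest. The 12 skeletal muscle markers summed to 175 CPM in sarcomatoid tumour 10 and 237 CPM in 9.1, to 4.89 to 27.7 CPM in the other 7 and to 1.57, 4.26 and 9.41 CPM in adenocarcinomas. In such bulk samples fewer cells of a type and less RNA per cell cannot be told apart. The part of these cell types in the differences below was not tested.

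Brca1, the gene that carries the variant, had 24.3 to 52.8 CPM (median 34.8) in sarcomatoid tumours, against 49.9, 70.2 and 83.9 CPM in adenocarcinomas (log2 fold change -0.87, SE 0.27, adjusted p = 0.0192). That call was lost without adenocarcinoma 26.2 (adjusted p = 0.0735) or 52 (adjusted p = 0.117). Trp53, which encodes p53, had 13.3 to 62.7 CPM (median 23.8) in sarcomatoid tumours, against 24.3, 22.8 and 24.1 CPM in adenocarcinomas, and did not pass (log2 fold change 0.21, adjusted p = 0.578). The highest Trp53 value belonged to sarcomatoid tumour 9.1. Gene totals do not show whether exons were missing.

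**Figure D1:**
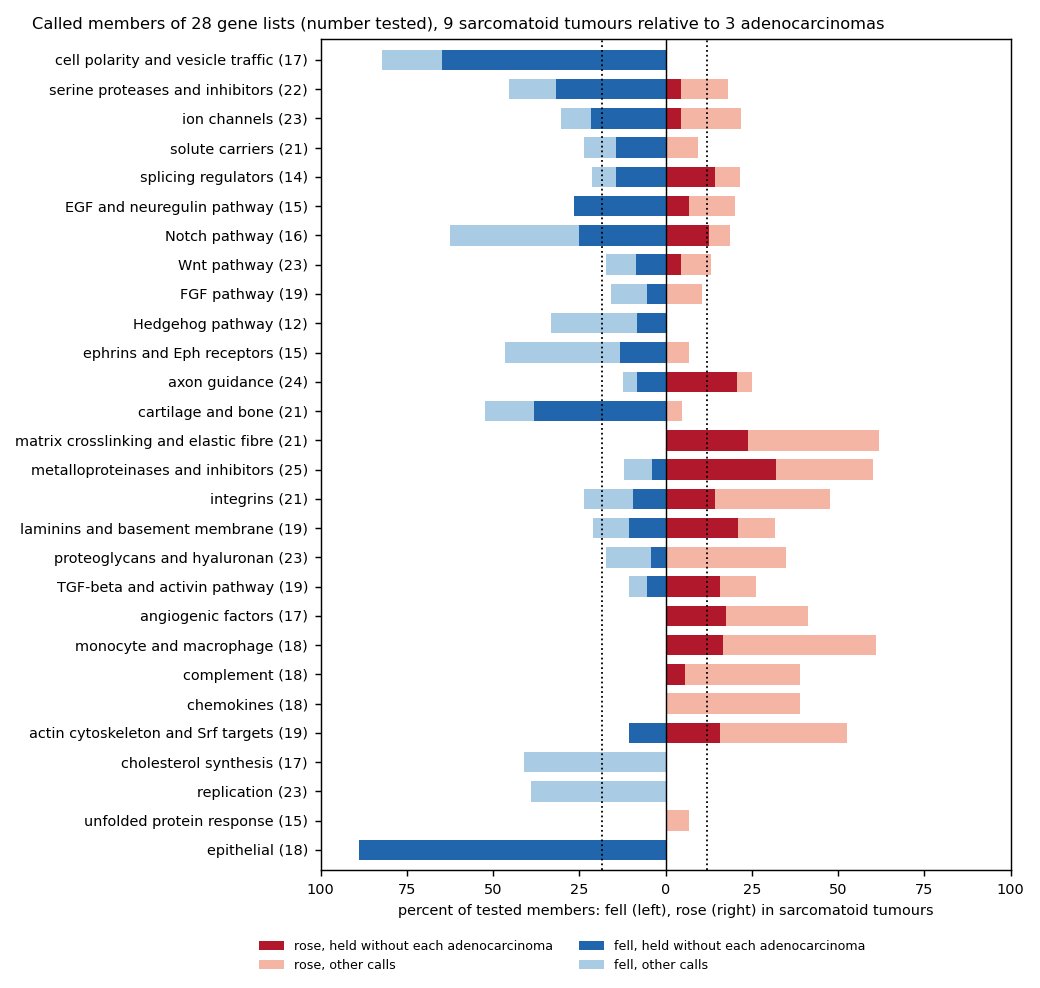
Share of the tested members of each of 28 gene lists that rose (right) or fell (left) in 9 sarcomatoid tumours relative to 3 adenocarcinomas, in percent. Dark bars are members whose call held in all 3 fits without 1 adenocarcinoma, pale bars the other called members, and dotted lines mark the 12.1% of all genes tested that rose and the 18.5% that fell; the longest left bar that held is that of the epithelial list, 16 of 18.

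Most genes of cell polarity and apical vesicle traffic fell. Of 17 tested, 14 fell, 0 rose and 11 of the falls held, with a median log2 fold change of -4.01. The list shares Prom2, which fell, with the 18 epithelial markers summed above. Rab25, a Rab protein of apical recycling in epithelial cells, had 0 to 3.95 CPM (median 0.619) in sarcomatoid tumours, against 55.3, 50.02 and 92.3 CPM in adenocarcinomas (log2 fold change -5.86, SE 1.10, adjusted p = 5.25e-04). Ap1m2, the epithelial subunit of the AP-1 sorting adaptor, had 0 to 3.30 CPM (median 0.550) in sarcomatoid tumours, against 88.5, 123 and 105 CPM in adenocarcinomas (log2 fold change -6.52, SE 1.17, adjusted p = 3.72e-04). All 9 sarcomatoid tumours lay far below all 3 adenocarcinomas for both genes, and each also passed against every single adenocarcinoma. Crb3, the small Crumbs protein that marks the apical membrane, had 0 to 1.24 CPM (median 0.192) in sarcomatoid tumours, against 11.2, 9.99 and 22.4 CPM in adenocarcinomas (log2 fold change -5.36, SE 0.97, adjusted p = 3.93e-04). Patj, the scaffold that ties Crumbs to tight junctions, had 2.59 to 15.2 CPM (median 5.40) in sarcomatoid tumours, against 93.3, 138 and 103 CPM in adenocarcinomas (log2 fold change -3.97, SE 0.64, adjusted p = 1.82e-04). Llgl2, a basolateral member of the Scribble group, had 1.27 to 4.59 CPM (median 2.16) in sarcomatoid tumours, against 21.6, 11.3 and 69.6 CPM in adenocarcinomas (log2 fold change -3.70, SE 0.62, adjusted p = 2.34e-04). Of these, Crb3 and Patj passed against every single adenocarcinoma, and Llgl2 against 2 of the 3. Marveld2, or tricellulin, the seal where 3 cells meet, fell by 5.42 on the log2 scale (adjusted p = 1.61e-04), and Pard6b, a Par complex subunit, by 4.01 (adjusted p = 5.01e-04). The Par scaffold gene Pard3 itself did not pass, at 37.02 to 95.4 CPM (median 61.5) in sarcomatoid tumours, against 60.4, 77.5 and 108 CPM in adenocarcinomas (log2 fold change -0.38, adjusted p = 0.258). Nor did Rab11fip1, a Rab11 effector of recycling (log2 fold change -0.59, adjusted p = 0.181), or Sytl5, a Rab27 effector whose estimate lay on the other side (log2 fold change 2.85, adjusted p = 0.0560). The calls of Rab17 and Mpp7 were lost without tumour 7.2 (adjusted p = 0.0785 and 0.128), and that of Rab27b without tumour 52 (adjusted p = 0.455).

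The promoters of 4 of these genes are shown because each holds several copies of the E-box CACCTG within 300 bases. The windows run from 250 bases before to 50 after a RefSeq gene start on GRCm38.p6, 5′ to 3′ on the gene's strand, and capitals mark CACCTG or its reverse complement CAGGTG. They are Rab25 at chr3:88548230-88548529 (minus strand), Crb3 at chr17:57061951-57062250 (plus strand), Ap1m2 at chr9:21312284-21312583 (minus strand) and Patj at chr4:98395576-98395875 (plus strand).
Rab25: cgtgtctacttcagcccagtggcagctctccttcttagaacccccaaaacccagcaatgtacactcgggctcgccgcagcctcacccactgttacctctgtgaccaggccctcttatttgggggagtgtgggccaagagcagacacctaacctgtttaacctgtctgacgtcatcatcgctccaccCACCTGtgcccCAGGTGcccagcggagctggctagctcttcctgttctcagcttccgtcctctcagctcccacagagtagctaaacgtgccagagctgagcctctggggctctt
Crb3: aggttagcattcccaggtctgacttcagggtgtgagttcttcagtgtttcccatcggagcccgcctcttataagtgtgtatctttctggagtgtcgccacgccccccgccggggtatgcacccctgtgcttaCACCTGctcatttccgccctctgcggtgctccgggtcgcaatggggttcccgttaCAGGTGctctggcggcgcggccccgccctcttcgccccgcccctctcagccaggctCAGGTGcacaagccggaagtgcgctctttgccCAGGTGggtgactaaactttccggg
Ap1m2: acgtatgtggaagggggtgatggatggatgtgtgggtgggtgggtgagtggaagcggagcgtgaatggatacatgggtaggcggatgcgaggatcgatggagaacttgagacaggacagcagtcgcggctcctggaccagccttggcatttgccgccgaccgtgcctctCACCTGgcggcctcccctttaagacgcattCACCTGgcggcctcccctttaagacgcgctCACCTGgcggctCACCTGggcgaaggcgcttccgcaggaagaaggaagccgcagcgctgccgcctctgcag
Patj: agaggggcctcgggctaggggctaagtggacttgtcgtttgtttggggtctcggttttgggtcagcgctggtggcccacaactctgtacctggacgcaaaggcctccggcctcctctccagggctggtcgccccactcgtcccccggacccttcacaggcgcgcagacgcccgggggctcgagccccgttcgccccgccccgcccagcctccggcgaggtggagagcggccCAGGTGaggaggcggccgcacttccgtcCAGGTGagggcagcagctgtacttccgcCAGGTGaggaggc
The Crb3 and Ap1m2 windows hold 4 copies each, the Patj window 3 and the Rab25 window 2. RefSeq lists a second start of Crb3, whose window overlaps the first, and other starts of Patj, whose windows hold 0 copies. Of the 17 genes of polarity and traffic tested, 12 matched a RefSeq promoter by symbol, and 8 of the 12 hold the motif on either strand in at least 1 listed promoter. Among all genes tested, 12174 had a promoter and 21.9% of these hold it. The share was 17.9% among the 1461 genes with a promoter that rose and 30.0% among the 2260 that fell. The median G and C content of the windows was 59.8% among genes that rose and 59.7% among genes that fell. A match describes the letters only, and the part of the motif in these changes was not tested. Of the factors known to bind this motif, Snai1 had 19.3 to 64.5 CPM (median 36.7) in sarcomatoid tumours, against 3.94, 4.08 and 4.12 CPM in adenocarcinomas (log2 fold change 3.21, SE 0.74, adjusted p = 0.00256). Zeb2 had 218 to 338 CPM (median 253) in sarcomatoid tumours, against 43.98, 29.7 and 53.3 CPM in adenocarcinomas (log2 fold change 2.62, SE 0.58, adjusted p = 0.00195). Both lay higher in every sarcomatoid tumour than in any adenocarcinoma. They are 2 of the 13 mesenchymal markers, of which 8 rose, 0 fell and 5 did not pass. Snai2 and Zeb1, members of the same families on that list, are not reported here. As a second motif, TGANTCA, the letters of the AP-1 site, which reads the same on both strands, was present in 9.17% of the promoters of genes that rose, in 6.64% of those of genes that fell and in 6.99% of all.

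**Figure D2:**
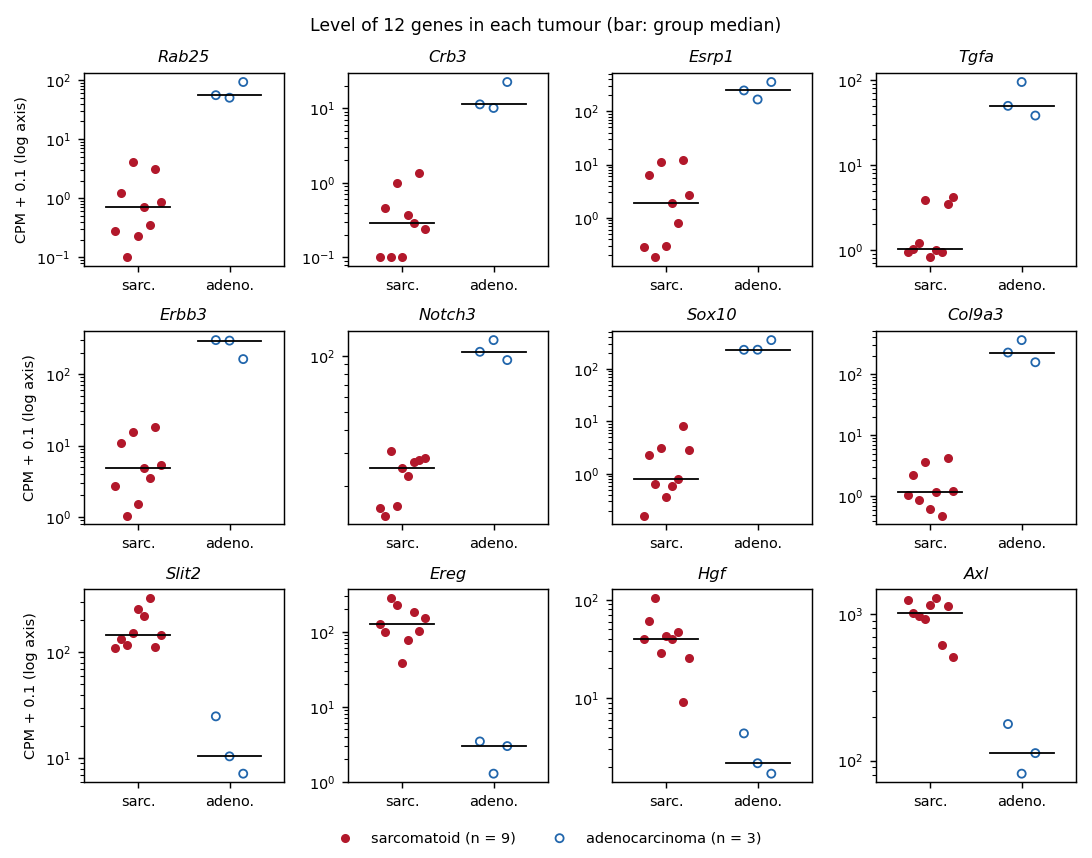
Level of 12 genes in each of 9 sarcomatoid tumours (left, filled) and 3 adenocarcinomas (right, open), in CPM plus 0.1 on a log axis, with a bar at each group's median. Only genes whose groups do not overlap are shown. Rab25, Crb3, Esrp1, Tgfa, Erbb3, Notch3, Sox10 and Col9a3 are lower and Slit2, Ereg, Hgf and Axl higher in sarcomatoid tumours.

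Membrane proteases of secretory epithelium fell as well. Of 22 serine proteases and inhibitors tested, 10 fell and 4 rose, and 7 falls and 1 rise held. The list shares St14 with the 18 epithelial markers summed above. St14, or matriptase, a protease of epithelial membranes, had 0.944 to 14.9 CPM (median 3.23) in sarcomatoid tumours, against 363, 233 and 325 CPM in adenocarcinomas (log2 fold change -5.75, SE 1.02, adjusted p = 3.30e-04). Its inhibitor Spint2 had 0.944 to 24.1 CPM (median 4.19) in sarcomatoid tumours, against 276, 125 and 238 CPM in adenocarcinomas (log2 fold change -4.71, SE 0.96, adjusted p = 9.92e-04). Prss8, or prostasin, which matriptase activates, had 0 to 2.63 CPM (median 1.31) in sarcomatoid tumours, against 31.8, 18.6 and 29.7 CPM in adenocarcinomas (log2 fold change -4.45, SE 0.95, adjusted p = 0.00141). All 9 sarcomatoid tumours lay below the 3 adenocarcinomas for this protease, its inhibitor and its substrate, and each of the 3 genes passed against every single adenocarcinoma. The rise that held was Serpinh1, the collagen chaperone Hsp47, at 592 to 1457 CPM (median 1042) in sarcomatoid tumours, against 427, 359.7 and 337 CPM in adenocarcinomas (log2 fold change 1.55, SE 0.33, adjusted p = 0.00159). Plau, the urokinase gene, also rose (log2 fold change 2.103, adjusted p = 0.00543), a call lost without adenocarcinoma 26.2 (adjusted p = 0.0542). Among 23 ion channel genes tested 7 fell and 5 rose, and among 21 solute carriers 5 fell and 2 rose, set beside the 18.5% of all genes that fell and the 12.1% that rose. Single members of these lists follow. Trpv6, an epithelial calcium channel, had 0 to 3.44 CPM (median 0.157) in sarcomatoid tumours, against 71.04, 113 and 32.2 CPM in adenocarcinomas (log2 fold change -6.71, SE 1.20, adjusted p = 3.55e-04). Slc34a2, a phosphate transporter of secretory epithelia, had 0 to 0.792 CPM (median 0.206) in sarcomatoid tumours, against 25.1, 12.4 and 18.9 CPM in adenocarcinomas (log2 fold change -6.13, SE 0.94, adjusted p = 1.25e-04). No sarcomatoid tumour reached the lowest adenocarcinoma for these 2 genes. Of the rises in these lists 1 held, that of Cacna2d1, an auxiliary subunit of calcium channels, at 42.9 to 99.3 CPM (median 57.5) in sarcomatoid tumours, against 11.9, 6.09 and 12.98 CPM in adenocarcinomas (log2 fold change 2.63, SE 0.63, adjusted p = 0.00357).

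The splicing factors that mark epithelial cells fell while others rose modestly. Esrp1, an epithelial splicing regulator, had 0.0786 to 12.3 CPM (median 1.79) in sarcomatoid tumours, against 248, 168 and 358 CPM in adenocarcinomas (log2 fold change -6.04, SE 1.29, adjusted p = 0.00141). Its partner Esrp2 had 0.303 to 9.01 CPM (median 3.02) in sarcomatoid tumours, against 40.6, 51.1 and 71.1 CPM in adenocarcinomas (log2 fold change -3.64, SE 0.72, adjusted p = 7.77e-04). Rbfox2, a splicing factor linked to mesenchymal exon choice, had 273 to 384 CPM (median 318) in sarcomatoid tumours, against 142, 152 and 141 CPM in adenocarcinomas (log2 fold change 1.16, SE 0.28, adjusted p = 0.00345). Qk, or quaking, had 339 to 501 CPM (median 405) in sarcomatoid tumours, against 209, 204 and 313 CPM in adenocarcinomas (log2 fold change 0.74, SE 0.17, adjusted p = 0.00211). All 9 sarcomatoid tumours lay on 1 side of the 3 adenocarcinomas for each of the 4 genes. Of 14 splicing regulators tested, 3 rose and 3 fell, and 2 held in each direction. Across all genes tested 12.1% rose and 18.5% fell. Esrp1 and Esrp2 are also among the 18 epithelial markers summed above, so their falls are part of that sum. The data give gene totals, so exon usage was not analysed here.

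Ligands of the EGF family changed in opposite directions. Of 15 genes of the pathway tested, 3 rose and 4 fell, beside 12.1% and 18.5% of all genes tested. Ereg, encoding the ligand epiregulin, had 38.1 to 280.4 CPM (median 126) in sarcomatoid tumours, against 3.35, 1.18 and 2.89 CPM in adenocarcinomas (log2 fold change 5.85, SE 1.52, adjusted p = 0.00611). Tgfa, encoding TGF-alpha, another ligand of the EGF receptor, had 0.712 to 4.13 CPM (median 0.936) in sarcomatoid tumours, against 49.6, 94.95 and 38.1 CPM in adenocarcinomas (log2 fold change -5.04, SE 0.90, adjusted p = 3.51e-04). The highest adenocarcinoma value of Ereg lay under the lowest sarcomatoid value, and the reverse was true of Tgfa. Nrg2, a neuregulin ligand, had 0 to 0.854 CPM (median 0.275) in sarcomatoid tumours, against 18.7, 18.3 and 6.95 CPM in adenocarcinomas (log2 fold change -5.65, SE 0.97, adjusted p = 2.60e-04). Erbb3, the neuregulin receptor, had 0.944 to 17.95 CPM (median 4.81) in sarcomatoid tumours, against 299.9, 295 and 162 CPM in adenocarcinomas (log2 fold change -5.18, SE 0.99, adjusted p = 5.93e-04). Its partner receptor Erbb2 fell by 1.76 on the log2 scale (adjusted p = 0.00237). Tgfa, Nrg2 and Erbb3 passed against every single adenocarcinoma, while Ereg passed against no adenocarcinoma alone (adjusted p = 0.230, 0.0970 and 0.219). Egfr, the receptor of Ereg and Tgfa, did not pass, at 53.2 to 171 CPM (median 134) in sarcomatoid tumours, against 168, 77.1 and 7.13 CPM in adenocarcinomas (log2 fold change 0.50, adjusted p = 0.446). Neither did Areg, encoding amphiregulin (log2 fold change 2.68, adjusted p = 0.109). A pair of calls depended on single adenocarcinomas: Hbegf, a ligand gene, rose (log2 fold change 2.45, adjusted p = 0.00755), a call lost without adenocarcinoma 7.2 (adjusted p = 0.0502) or without adenocarcinoma 26.2 (adjusted p = 0.0633), and Errfi1, a feedback inhibitor of EGF receptors, rose (log2 fold change 2.14, adjusted p = 0.0115), a call lost without adenocarcinoma 26.2 (adjusted p = 0.0759) or without adenocarcinoma 52 (adjusted p = 0.0587).

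In the Notch pathway 10 of 16 genes tested fell and 3 rose, and 4 falls and 2 rises held. Among ligands, Dll1 had 2.98 to 7.90 CPM (median 4.40) in sarcomatoid tumours, against 47.6, 174 and 18.8 CPM in adenocarcinomas (log2 fold change -4.03, SE 0.65, adjusted p = 1.83e-04). Dll4, a ligand known from vessel endothelium, had 13.2 to 45.2 CPM (median 20.02) in sarcomatoid tumours, against 10.1, 6.86 and 6.27 CPM in adenocarcinomas (log2 fold change 1.57, SE 0.34, adjusted p = 0.00158). Among receptors, Notch3 had 13.8 to 30.9 CPM (median 24.8) in sarcomatoid tumours, against 105, 122 and 94.96 CPM in adenocarcinomas (log2 fold change -2.23, SE 0.38, adjusted p = 2.44e-04). Notch1 had 34.4 to 102 CPM (median 40.6) in sarcomatoid tumours, against 233, 194 and 171 CPM in adenocarcinomas (log2 fold change -1.999, SE 0.41, adjusted p = 0.00116). Notch4, an endothelial Notch receptor, had 23.5 to 70.6 CPM (median 27.4) in sarcomatoid tumours, against 13.1, 15.4 and 11.1 CPM in adenocarcinomas (log2 fold change 1.45, SE 0.39, adjusted p = 0.00761). Dll4 and Notch4 rose, while Dll1, Notch1 and Notch3 fell. Whether the 2 rises followed the endothelial markers given above was not tested. Nrarp, a feedback target of Notch, had 5.04 to 10.5 CPM (median 7.77) in sarcomatoid tumours, against 34.8, 61.7 and 30.3 CPM in adenocarcinomas (log2 fold change -2.45, SE 0.41, adjusted p = 2.13e-04). Groups did not overlap for any of these 6 genes. The falls of the ligands Jag1 and Jag2 and of the targets Hes1, Hes6, Hey1 and Heyl were each lost without 1 adenocarcinoma, with adjusted p of 0.415 for Jag1 and 0.107 for Hes1 without 52, 0.103 for Hey1 without 7.2, and 0.0754, 0.185 and 0.133 for Jag2, Hes6 and Heyl without 26.2. The rise of Notch2 was lost without 26.2 as well (adjusted p = 0.0945). Maml2, a co-activator of Notch, did not pass (log2 fold change -0.72, adjusted p = 0.109).

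The Wnt receptor genes Fzd7 and Lrp5 fell in the sarcomatoid tumours. Fzd7, a Frizzled receptor, had 34.6 to 62.9 CPM (median 48.6) in sarcomatoid tumours, against 257, 471 and 208 CPM in adenocarcinomas (log2 fold change -2.75, SE 0.46, adjusted p = 2.13e-04). Lrp5, a Wnt co-receptor, had 59.1 to 114 CPM (median 76.2) in sarcomatoid tumours, against 344, 300.4 and 289 CPM in adenocarcinomas (log2 fold change -1.99, SE 0.34, adjusted p = 2.66e-04). Ccn4, a Wnt-inducible secreted protein, rose, at 115 to 444 CPM (median 191) in sarcomatoid tumours, against 23.99, 6.21 and 36.5 CPM in adenocarcinomas (log2 fold change 3.27, SE 0.85, adjusted p = 0.00585). Of 23 Wnt genes tested 4 fell and 3 rose, and the calls of these 3 genes were those that held. Both counts lie near the 18.5% of all genes tested that fell and the 12.1% that rose. The same is true of the FGF counts below. Axin2, a general target of the pathway, did not pass (log2 fold change 0.48, adjusted p = 0.501). In the FGF pathway 3 of 19 fell and 2 rose, of which the fall of the receptor gene Fgfr3 held, at 0.854 to 3.75 CPM (median 1.64) in sarcomatoid tumours, against 6.48, 39.3 and 21.6 CPM in adenocarcinomas (log2 fold change -3.57, SE 0.83, adjusted p = 0.00276). In the Hedgehog pathway 4 of 12 fell, of which that of the inhibitor gene Sufu held, at 37.8 to 55.3 CPM (median 40.4) in sarcomatoid tumours, against 87.95, 87.1 and 67.2 CPM in adenocarcinomas (log2 fold change -0.93, SE 0.21, adjusted p = 0.00234). Among ephrins and their receptors 7 of 15 fell and 1 rose, and the falls of the receptors Ephb3 (log2 fold change -1.70, adjusted p = 0.00229) and Ephb6 (log2 fold change -2.12, adjusted p = 0.00430) held.

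The Slit ligand genes Slit2 and Slit3 and the neuropilin genes Nrp1 and Nrp2 rose in sarcomatoid tumours. Of 24 axon guidance genes tested 6 rose and 3 fell, beside 12.1% and 18.5% of all genes tested. Slit2, a secreted ligand of Robo receptors, had 109 to 324 CPM (median 147) in sarcomatoid tumours, against 24.8, 10.3 and 7.07 CPM in adenocarcinomas (log2 fold change 3.63, SE 0.52, adjusted p = 8.63e-05). Slit3, a second ligand of this family, had 72.2 to 245 CPM (median 107) in sarcomatoid tumours, against 25.3, 21.5 and 17.5 CPM in adenocarcinomas (log2 fold change 2.65, SE 0.67, adjusted p = 0.00492). Every sarcomatoid tumour lay above every adenocarcinoma for both ligands. Nrp2, a co-receptor of semaphorins and of VEGF-C, had 273 to 1135 CPM (median 335) in sarcomatoid tumours, against 65.9, 34.3 and 43.9 CPM in adenocarcinomas (log2 fold change 3.20, SE 0.56, adjusted p = 3.15e-04). Nrp1 had 126 to 349 CPM (median 254) in sarcomatoid tumours, against 54.4, 38.96 and 34.7 CPM in adenocarcinomas (log2 fold change 2.58, SE 0.60, adjusted p = 0.00282). On the other side, Sema6a, a membrane semaphorin, had 9.84 to 24.4 CPM (median 12.2) in sarcomatoid tumours, against 84.9, 246 and 123 CPM in adenocarcinomas (log2 fold change -3.42, SE 0.50, adjusted p = 9.08e-05). Plxnb1, the receptor of semaphorin 4D, had 4.87 to 17.4 CPM (median 7.49) in sarcomatoid tumours, against 141, 115 and 304 CPM in adenocarcinomas (log2 fold change -4.17, SE 0.67, adjusted p = 1.73e-04). Slit2, Sema6a and Plxnb1 passed against every single adenocarcinoma. Of these 6 rises and 3 falls, 5 rises and 2 falls held. The Slit receptor Robo1 did not pass (log2 fold change 0.46, adjusted p = 0.502), while Robo4, an endothelial receptor of this family, rose (log2 fold change 1.43, adjusted p = 0.00255). Sema3a, a secreted semaphorin, rose (log2 fold change 4.66, adjusted p = 0.0208), a call lost without adenocarcinoma 26.2 (adjusted p = 0.0943) or without adenocarcinoma 52 (adjusted p = 0.0764).

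Cartilage collagen genes and the neural crest gene Sox10 fell in sarcomatoid tumours. Of 21 cartilage and bone genes tested 11 fell and 1 rose, and 8 falls held. Col9a3, a chain of cartilage collagen IX, had 0.385 to 4.20 CPM (median 1.10) in sarcomatoid tumours, against 226, 361 and 157 CPM in adenocarcinomas (log2 fold change -7.23, SE 0.98, adjusted p = 6.88e-05). Col2a1, the main cartilage collagen, had 0 to 3.23 CPM (median 0.192) in sarcomatoid tumours, against 53.5, 61.96 and 98.96 CPM in adenocarcinomas (log2 fold change -6.62, SE 1.52, adjusted p = 0.00258). Snorc, a cartilage proteoglycan, had 3 counts over all 9 sarcomatoid tumours, against 32.7, 55.3 and 28.4 CPM in adenocarcinomas, a ratio of 1720 in favour of adenocarcinomas (95% counting interval 587 to 8320). Sox10, a neural crest regulator that is also present in mammary epithelium, had 0.0606 to 8.19 CPM (median 0.706) in sarcomatoid tumours, against 232, 233 and 356 CPM in adenocarcinomas (log2 fold change -7.07, SE 1.23, adjusted p = 2.84e-04). For Col9a3, Col2a1 and Sox10 the highest sarcomatoid value was under the lowest adenocarcinoma value, and each passed against every single adenocarcinoma. Acan, encoding aggrecan, did not pass (log2 fold change 3.43, adjusted p = 0.128), nor did Comp, encoding cartilage oligomeric matrix protein (log2 fold change 0.72, adjusted p = 0.609). Runx2, a bone regulator, was the 1 gene that rose, at 40.4 to 78.5 CPM (median 56.2) in sarcomatoid tumours, against 27.9, 14.8 and 33.4 CPM in adenocarcinomas (log2 fold change 1.21, SE 0.30, adjusted p = 0.00438), a call lost without adenocarcinoma 26.2 (adjusted p = 0.0556). Mbp, a myelin gene of Schwann cells, did not pass (log2 fold change -1.12, adjusted p = 0.0635).

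Among developmental regulators outside these pathways, Id4, an inhibitor of basic helix-loop-helix factors, had 0.157 to 3.04 CPM (median 0.424) in sarcomatoid tumours, against 40.2, 135 and 10.9 CPM in adenocarcinomas (log2 fold change -6.25, SE 1.38, adjusted p = 0.00189). Smad6, an inhibitory Smad, had 0.485 to 1.81 CPM (median 0.944) in sarcomatoid tumours, against 3.51, 7.69 and 4.55 CPM in adenocarcinomas (log2 fold change -2.34, SE 0.49, adjusted p = 0.00138). The groups did not overlap for either gene. Igf2bp2, a fetal RNA-binding protein, had 64.5 to 221 CPM (median 126) in sarcomatoid tumours, against 11.3, 10.5 and 3.81 CPM in adenocarcinomas (log2 fold change 3.98, SE 0.96, adjusted p = 0.00364). The imprinted gene Sgce, encoding epsilon-sarcoglycan, had 22.3 to 63.4 CPM (median 51.8) in sarcomatoid tumours, against 9.24, 4.26 and 2.09 CPM in adenocarcinomas (log2 fold change 3.27, SE 0.79, adjusted p = 0.00379). Peg3, another imprinted gene, went the other way, at 3.92 to 27.2 CPM (median 10.9) in sarcomatoid tumours, against 287, 315 and 12.5 CPM in adenocarcinomas (log2 fold change -3.91, SE 1.01, adjusted p = 0.00594), with tumour 52 inside the sarcomatoid range and no fall when it was the sole adenocarcinoma (log2 fold change 0.12). In retinoid metabolism 5 of 17 genes fell and 1 rose, beside 18.5% and 12.1% of all genes tested. Aldh1a1 and Aldh1a3, which make retinoic acid, both fell and held, Aldh1a1 at 0.192 to 1.72 CPM (median 0.963) in sarcomatoid tumours, against 12.7, 127 and 29.6 CPM in adenocarcinomas (log2 fold change -5.83, SE 1.43, adjusted p = 0.00404) and Aldh1a3 at 0.194 to 3.11 CPM (median 1.93) in sarcomatoid tumours, against 14.8, 19.04 and 111 CPM in adenocarcinomas (log2 fold change -5.01, SE 1.04, adjusted p = 0.00115).

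By the rule for genes with the greatest differences that held in all 3 fits and did not overlap, outside the epithelial and mesenchymal lists, the falls began with Gpx2, a glutathione peroxidase of epithelia. It had 0 counts in all 9 sarcomatoid tumours and 16.7, 50.7 and 40.6 CPM in adenocarcinomas, so the sarcomatoid level was at least 1594-fold lower, taking 3 counts as the limit for the empty group as a whole. Krt42, a type I keratin, had 0 counts in the sarcomatoid tumours too and 1.03, 1.60 and 103 CPM in adenocarcinomas, at least 1558-fold lower, with tumour 52 giving most of the adenocarcinoma level (at least 58-fold without it). Krt79, a keratin of hair follicle ducts, had 0 to 1.58 CPM (median 0.138) in sarcomatoid tumours, against 58.9, 908 and 719 CPM in adenocarcinomas (log2 fold change -10.82, SE 1.44, adjusted p = 6.09e-05). Fbp1, a gluconeogenic enzyme, had 0 to 0.518 CPM (median 0) in sarcomatoid tumours, against 15.5, 169 and 45.8 CPM in adenocarcinomas (log2 fold change -9.40, SE 1.18, adjusted p = 4.98e-05). Edar, the ectodysplasin receptor of skin appendages, had 0 to 0.356 CPM (median 0.0648) in sarcomatoid tumours, against 23.8, 79.9 and 8.24 CPM in adenocarcinomas (log2 fold change -8.67, SE 1.22, adjusted p = 8.22e-05). Sostdc1, a secreted BMP and Wnt antagonist of ectodermal organs, had 0 to 0.647 CPM (median 0.138) in sarcomatoid tumours, against 18.6, 234 and 53.6 CPM in adenocarcinomas (log2 fold change -9.13, SE 1.45, adjusted p = 1.57e-04). Krt79, Fbp1, Edar and Sostdc1 passed against every single adenocarcinoma, although tumour 26.2 was several times higher than the other two for Fbp1, Edar and Sostdc1. Grhl3, an epithelial barrier regulator, had 0 to 0.619 CPM (median 0) in sarcomatoid tumours, against 16.9, 27.02 and 23.9 CPM in adenocarcinomas (log2 fold change -7.73, SE 1.20, adjusted p = 1.35e-04). Cnmd, encoding chondromodulin, had 0 to 0.259 CPM (median 0.0606) in sarcomatoid tumours, against 2.65, 431 and 7.20 CPM in adenocarcinomas (log2 fold change -10.79, SE 1.68, adjusted p = 1.39e-04), and most of its adenocarcinoma level came from tumour 26.2. Ceacam20, an adhesion molecule, had 3 counts over the 9 sarcomatoid tumours, against 12.97, 5.20 and 31.8 CPM in adenocarcinomas, a ratio of 737 in favour of adenocarcinomas (252 to 3570), or 402 without tumour 52. Htr5b, a serotonin receptor, also had 3 counts there, against 10.8, 2.96 and 35.2 CPM in adenocarcinomas, a ratio of 722 (247 to 3500), or 303 without tumour 52. Gjb1, or connexin 32, had 3 counts as well, against 6.64, 10.2 and 13.5 CPM in adenocarcinomas, a ratio of 448 (153 to 2170). Faim2, an inhibitor of apoptosis, had 0 to 0.970 CPM (median 0.216) in sarcomatoid tumours, against 96.6, 114 and 116 CPM in adenocarcinomas (log2 fold change -8.57, SE 0.996, adjusted p = 4.98e-05). Art4, an ADP-ribosyltransferase, had 0 to 0.144 CPM (median 0) in sarcomatoid tumours, against 25.7, 68.9 and 0.185 CPM in adenocarcinomas. It fell (log2 fold change -9.43, SE 1.74, adjusted p = 4.73e-04), although tumour 52 lay barely above the highest sarcomatoid tumour, both near the floor.

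Rises that met the same rule included Syt17, a synaptotagmin, which had 0.498 to 16.99 CPM (median 6.47) in sarcomatoid tumours, against 0, 0.118 and 0 CPM in adenocarcinomas, with 2 counts in all adenocarcinomas, so that the ratio of 159 has a 95% counting interval of 44.1 to 1320. Lrch2, a leucine-rich repeat protein, had 23.8 to 64.1 CPM (median 45.9) in sarcomatoid tumours, against 3.89, 1.30 and 1.29 CPM in adenocarcinomas (log2 fold change 4.27, SE 0.999, adjusted p = 0.00288). Ncam1, the neural cell adhesion molecule, had 20.9 to 198 CPM (median 66.96) in sarcomatoid tumours, against 8.64, 3.61 and 4.49 CPM in adenocarcinomas (log2 fold change 3.67, SE 0.92, adjusted p = 0.00461). It was 1 of 2 genes of the neural and Schwann list that rose, with Cadm2, while 4 of the 17 fell. Across all genes tested 12.1% rose and 18.5% fell. Thbd, encoding thrombomodulin, had 29.98 to 205 CPM (median 95.2) in sarcomatoid tumours, against 8.70, 11.5 and 5.54 CPM in adenocarcinomas (log2 fold change 3.78, SE 1.07, adjusted p = 0.0105). Abcb4, a phospholipid transporter of the drug efflux family, had 1.58 to 47.8 CPM (median 4.49) in sarcomatoid tumours, against 0.270, 0.355 and 0.861 CPM in adenocarcinomas (log2 fold change 4.13, SE 1.11, adjusted p = 0.00733). Its highest value belonged to tumour 9.1, which gave 59.5% of the sarcomatoid counts. The related Abcb1b, a drug efflux pump, rose as well (log2 fold change 3.68, adjusted p = 0.00943). Il13ra2, a decoy receptor of interleukin 13, had 1.49 to 28.05 CPM (median 3.44) in sarcomatoid tumours, against 0.270, 0.177 and 0.0615 CPM in adenocarcinomas (log2 fold change 5.28, SE 1.47, adjusted p = 0.00930). Ak5, an adenylate kinase, had 5.55 to 25.9 CPM (median 14.9) in sarcomatoid tumours, against 1.19, 0.887 and 0.615 CPM in adenocarcinomas (log2 fold change 4.10, SE 0.96, adjusted p = 0.00293). All 9 sarcomatoid tumours lay above the 3 adenocarcinomas for the genes that met the rule, because the rule required it. Ptgs2os2, which lies opposite Ptgs2, and Lyz1, a near copy of Lyz2, also met the rule, but whether reads were counted by strand or shared between copies was not stated in the sources used here. By p-value, the rises began with Sh3bgrl, a small thioredoxin-fold protein, at 390.5 to 541 CPM (median 469.8) in sarcomatoid tumours, against 144, 142 and 137 CPM in adenocarcinomas (log2 fold change 1.69, SE 0.21, adjusted p = 4.98e-05), and Rab31, an endosomal Rab protein, at 179 to 368 CPM (median 237) in sarcomatoid tumours, against 59.9, 69.7 and 118 CPM in adenocarcinomas (log2 fold change 1.63, SE 0.22, adjusted p = 7.31e-05). Arhgap17, a GTPase activator, followed Slit2 (adjusted p = 1.01e-04). These 4 genes passed against every single adenocarcinoma. Among falls, the smallest p-values were those of Sox13, a transcription factor (log2 fold change -4.19, SE 0.51, adjusted p = 4.98e-05), and Plekha7, an adherens junction protein (log2 fold change -4.05, SE 0.51, adjusted p = 4.98e-05), followed by Fbp1, Faim2 and the predicted gene Gm12860, which had 1 count in all sarcomatoid tumours.

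**Figure D3:**
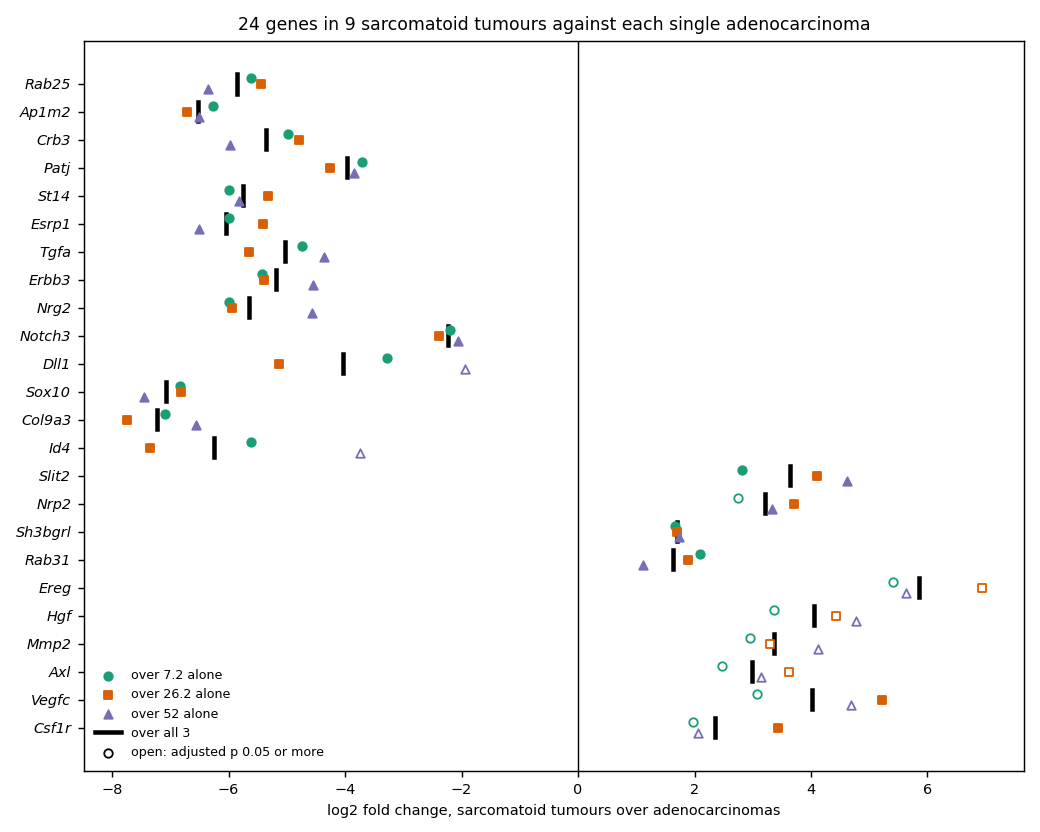
Log2 fold change of 24 genes in 9 sarcomatoid tumours over all 3 adenocarcinomas (black bar) and over each of the adenocarcinomas 7.2, 26.2 and 52 alone (coloured symbols, filled where the adjusted p was under 0.05). Every symbol lies on the same side of 0 as its bar, and for Ereg, Hgf, Mmp2 and Axl all 3 symbols are open.

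Genes of matrix crosslinking and matrix breakdown rose in sarcomatoid tumours. Of 21 genes of matrix crosslinking and elastic fibres tested, 13 rose, 0 fell and 5 held. Plod1, a collagen lysyl hydroxylase, had 208 to 317 CPM (median 248) in sarcomatoid tumours, against 99.6, 78.3 and 86.5 CPM in adenocarcinomas (log2 fold change 1.52, SE 0.31, adjusted p = 0.00113). Loxl2, a lysyl oxidase, had 220.1 to 493 CPM (median 352) in sarcomatoid tumours, against 40.7, 32.99 and 106 CPM in adenocarcinomas (log2 fold change 2.49, SE 0.58, adjusted p = 0.00275). Efemp2, a fibulin of elastic fibres, had 135 to 289 CPM (median 203) in sarcomatoid tumours, against 49.3, 48.5 and 42.7 CPM in adenocarcinomas (log2 fold change 2.16, SE 0.45, adjusted p = 0.00123). The groups did not overlap for these 3 genes. Lox itself reached 120.2 to 4338 CPM (median 2127) in sarcomatoid tumours, against 70.1, 70.9 and 142 CPM in adenocarcinomas (log2 fold change 4.46, adjusted p = 0.0139), a call lost without adenocarcinoma 7.2 (adjusted p = 0.0577) or without adenocarcinoma 26.2 (adjusted p = 0.0721). Of 25 metalloproteinases and inhibitors 15 rose, 3 fell, and 8 rises held. Mmp14, a membrane collagenase, had 354 to 1392 CPM (median 896) in sarcomatoid tumours, against 146, 309 and 231 CPM in adenocarcinomas (log2 fold change 1.93, SE 0.43, adjusted p = 0.00194). Mmp2, the gelatinase it activates, had 564 to 1177 CPM (median 899) in sarcomatoid tumours, against 112, 89.3 and 49.9 CPM in adenocarcinomas (log2 fold change 3.37, SE 0.82, adjusted p = 0.00386). Timp2, the inhibitor that takes part in this activation, had 655 to 1307 CPM (median 910.2) in sarcomatoid tumours, against 271, 96.5 and 90.7 CPM in adenocarcinomas (log2 fold change 2.61, SE 0.61, adjusted p = 0.00294). Mmp15, a second membrane metalloproteinase, fell, at 5.27 to 19.8 CPM (median 11.8) in sarcomatoid tumours, against 88.00, 31.9 and 194 CPM in adenocarcinomas (log2 fold change -3.01, SE 0.71, adjusted p = 0.00321). Each of these 4 genes had no overlap between groups and held without each adenocarcinoma.

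Integrin genes changed in both directions. Of 21 integrin genes 10 rose and 5 fell, and 3 rises and 2 falls held. Itga5, the fibronectin receptor chain, had 367 to 964 CPM (median 531) in sarcomatoid tumours, against 65.6, 45.1 and 131 CPM in adenocarcinomas (log2 fold change 2.89, SE 0.63, adjusted p = 0.00175). Itgav had 389 to 905 CPM (median 568) in sarcomatoid tumours, against 194, 132 and 288 CPM in adenocarcinomas (log2 fold change 1.44, SE 0.28, adjusted p = 7.13e-04). Itgb4, the hemidesmosome chain that binds laminin 332, had 2.31 to 38.5 CPM (median 13.3) in sarcomatoid tumours, against 111, 184 and 427 CPM in adenocarcinomas (log2 fold change -4.13, SE 0.90, adjusted p = 0.00178). None of these 3 genes overlapped between groups. Itga3, a laminin receptor chain, did not pass (log2 fold change -0.30, adjusted p = 0.680). In the basement membrane list 6 of 19 rose and 4 fell. Nid1, or nidogen, had 1006 to 2161 CPM (median 1572) in sarcomatoid tumours, against 204, 114 and 172 CPM in adenocarcinomas (log2 fold change 3.21, SE 0.70, adjusted p = 0.00168). Hspg2, or perlecan, had 567 to 1908 CPM (median 1186) in sarcomatoid tumours, against 225, 179.8 and 137 CPM in adenocarcinomas (log2 fold change 2.72, SE 0.51, adjusted p = 5.50e-04). Lama1, a laminin chain, had 0.909 to 5.92 CPM (median 2.06) in sarcomatoid tumours, against 106, 175 and 0.554 CPM in adenocarcinomas (log2 fold change -5.34, SE 1.17, adjusted p = 0.00179), with tumour 52 under the lowest sarcomatoid tumour and a difference of opposite sign when it was the sole adenocarcinoma (log2 fold change 2.04). Of 23 proteoglycans 8 rose and 4 fell, and none of the rises held. Vcan, or versican, had the smallest p-value of these rises (log2 fold change 1.77, adjusted p = 0.00627), a call lost without adenocarcinoma 26.2 (adjusted p = 0.0543).

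Of growth factor pathways of stroma, the HGF and TGF-beta branches had members that held. Hgf, the ligand of Met, had 9.08 to 104 CPM (median 40.1) in sarcomatoid tumours, against 4.27, 2.07 and 1.60 CPM in adenocarcinomas (log2 fold change 4.05, SE 0.99, adjusted p = 0.00392). Axl, a receptor kinase, had 512 to 1288 CPM (median 1017) in sarcomatoid tumours, against 177, 81.2 and 112 CPM in adenocarcinomas (log2 fold change 2.995, SE 0.72, adjusted p = 0.00363). Tgfbr2, the type II receptor of TGF-beta, had 573 to 1099 CPM (median 755) in sarcomatoid tumours, against 139, 89.1 and 118 CPM in adenocarcinomas (log2 fold change 2.78, SE 0.66, adjusted p = 0.00334). Ltbp1, which tethers latent TGF-beta to matrix, had 160.5 to 833 CPM (median 320.1) in sarcomatoid tumours, against 126, 75.1 and 47.8 CPM in adenocarcinomas (log2 fold change 2.14, SE 0.50, adjusted p = 0.00271). The groups did not overlap for these 4 genes. The receptor Met and the ligand Tgfb1 did not pass (log2 fold change 1.35, adjusted p = 0.494 and log2 fold change 0.47, adjusted p = 0.303). Of 19 TGF-beta genes 5 rose and 2 fell, and of 17 BMP genes 3 rose and 2 fell. Of 22 PDGF, IGF and HGF genes 5 rose and 2 fell. Across all genes tested 12.1% rose, 18.5% fell and 30.6% were called in either direction. Of 17 angiogenic factors 7 rose, of which 3 held. Vegfc, the ligand for lymphatic growth, had 23.99 to 98.2 CPM (median 63.02) in sarcomatoid tumours, against 6.97, 1.60 and 2.28 CPM in adenocarcinomas (log2 fold change 4.02, SE 0.87, adjusted p = 0.00167). Thbs2, an inhibitor of vessel growth, had 546 to 1405 CPM (median 761) in sarcomatoid tumours, against 213, 60.7 and 191 CPM in adenocarcinomas (log2 fold change 2.56, SE 0.64, adjusted p = 0.00480). Vegfa, the main vessel growth factor, did not pass, at 63.7 to 425 CPM (median 138) in sarcomatoid tumours, against 43.8, 68.3 and 495 CPM in adenocarcinomas (log2 fold change -0.02, adjusted p = 0.986). Of 14 blood vessel markers 9 rose and 3 held, and of 5 lymphatic markers 2 rose and none held.

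Myeloid genes rose, and most of these rises were lost without at least 1 adenocarcinoma. Of 18 monocyte and macrophage genes 11 rose and 3 held. Ccr2, the receptor that recruits monocytes, had 45.8 to 296 CPM (median 212) in sarcomatoid tumours, against 13.8, 8.10 and 23.9 CPM in adenocarcinomas (log2 fold change 3.61, SE 0.90, adjusted p = 0.00450). Mrc1, the mannose receptor of macrophages, had 381 to 715 CPM (median 485) in sarcomatoid tumours, against 75.8, 64.8 and 35.3 CPM in adenocarcinomas (log2 fold change 3.09, SE 0.77, adjusted p = 0.00455). Csf1r, the receptor of macrophage growth factor, had 399 to 934 CPM (median 571) in sarcomatoid tumours, against 157, 58.4 and 149 CPM in adenocarcinomas (log2 fold change 2.35, SE 0.58, adjusted p = 0.00434). Every sarcomatoid tumour lay above every adenocarcinoma for the 3 genes. Arg1 and Nos2, the enzymes used to tell macrophage states apart, did not pass (log2 fold change 1.92, adjusted p = 0.192 and log2 fold change 1.33, adjusted p = 0.165). Of 21 lysosomal genes 11 rose and 2 held, Hexa (log2 fold change 2.08, adjusted p = 0.00307) and Ctsa (log2 fold change 1.37, adjusted p = 0.00460), both lysosomal enzymes. Of 18 complement genes 7 rose and 1 held, Cfp, or properdin, at 55.2 to 249.5 CPM (median 114) in sarcomatoid tumours, against 12.2, 13.7 and 19.9 CPM in adenocarcinomas (log2 fold change 2.99, SE 0.73, adjusted p = 0.00382). Of 18 chemokines 7 rose, with no rise that held: Ccl2, which attracts monocytes, had 97.96 to 461 CPM (median 225) in sarcomatoid tumours, against 26.7, 4.02 and 15.7 CPM in adenocarcinomas (log2 fold change 3.97, adjusted p = 0.0210), a call lost without adenocarcinoma 26.2 (adjusted p = 0.105) or without adenocarcinoma 52 (adjusted p = 0.0639). Cxcl5, which attracts neutrophils, had 7.46 to 195 CPM (median 107) in sarcomatoid tumours, against 2.00, 1.83 and 1.35 CPM in adenocarcinomas (log2 fold change 5.73, adjusted p = 0.0123), a call lost without adenocarcinoma 26.2 (adjusted p = 0.0592). Among checkpoint genes Entpd1, or CD39, had 64.6 to 578 CPM (median 151) in sarcomatoid tumours, against 38.95, 21.9 and 20.4 CPM in adenocarcinomas (log2 fold change 2.94, SE 0.69, adjusted p = 0.00288). Vsir, or VISTA, had 106 to 245 CPM (median 175) in sarcomatoid tumours, against 67.9, 44.9 and 41.7 CPM in adenocarcinomas (log2 fold change 1.83, SE 0.46, adjusted p = 0.00513), while Cd274, or PD-L1, did not pass (log2 fold change 1.42, adjusted p = 0.191). Of 16 T and NK cell genes 1 rose and 1 fell, and neither call held.

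Moesin and ezrin, related proteins that link actin to the membrane, changed in opposite directions. Msn, or moesin, had 1429 to 2733 CPM (median 1889) in sarcomatoid tumours, against 395, 261 and 796 CPM in adenocarcinomas (log2 fold change 1.97, SE 0.43, adjusted p = 0.00170). Ezr, or ezrin, of the same family and known from apical membranes, had 56.7 to 129 CPM (median 99.4) in sarcomatoid tumours, against 488, 392 and 489.6 CPM in adenocarcinomas (log2 fold change -2.22, SE 0.45, adjusted p = 0.00108). Myo5b, an apical recycling motor, had 0 to 3.51 CPM (median 0.688) in sarcomatoid tumours, against 14.4, 22.7 and 188 CPM in adenocarcinomas (log2 fold change -5.96, SE 1.15, adjusted p = 6.81e-04). Moesin alone of the 3 was higher in sarcomatoid tumours than in adenocarcinomas, and no group overlapped. Of 19 genes tested 10 rose and 2 fell, and 3 rises and both falls held. Of 16 targets and partners of Yap and Taz 7 rose and 4 held. Lats2, a kinase that restrains Yap, had 72.2 to 134 CPM (median 113) in sarcomatoid tumours, against 29.01, 29.5 and 46.8 CPM in adenocarcinomas (log2 fold change 1.66, SE 0.40, adjusted p = 0.00363). Tead1, its DNA-binding partner, had 159.6 to 833 CPM (median 329) in sarcomatoid tumours, against 187, 77.9 and 139 CPM in adenocarcinomas (log2 fold change 1.44, SE 0.34, adjusted p = 0.00305). Ccn1, a common target gene, did not pass (log2 fold change 1.33, adjusted p = 0.166).

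Genes of lipid and redox metabolism changed in both directions. In eicosanoid metabolism 4 of 17 rose and 4 fell, beside 12.1% and 18.5% of all genes tested. Pla2g4a, the phospholipase that frees arachidonic acid, had 38.2 to 199 CPM (median 148) in sarcomatoid tumours, against 26.5, 5.97 and 27.1 CPM in adenocarcinomas (log2 fold change 2.80, SE 0.71, adjusted p = 0.00489). Ptgs2, the cyclooxygenase COX-2, had 82.4 to 1233 CPM (median 470.0) in sarcomatoid tumours, against 2.76, 7.27 and 25.6 CPM in adenocarcinomas (log2 fold change 5.46, SE 1.51, adjusted p = 0.00893), a call lost without adenocarcinoma 26.2 (adjusted p = 0.0554). The lipoxygenases ran the other way: Alox15 had 0 to 0.777 CPM (median 0.288) in sarcomatoid tumours, against 2.97, 24.00 and 43.98 CPM in adenocarcinomas (log2 fold change -6.16, SE 1.05, adjusted p = 2.50e-04), Alox12 had 0.138 to 1.89 CPM (median 0.641) in sarcomatoid tumours, against 5.94, 23.1 and 56.7 CPM in adenocarcinomas (log2 fold change -5.20, SE 1.14, adjusted p = 0.00175) and Alox12e had 0 to 0.504 CPM (median 0) in sarcomatoid tumours, against 2.54, 5.62 and 111 CPM in adenocarcinomas (log2 fold change -8.997, SE 1.57, adjusted p = 2.97e-04). These 3 falls held, although tumour 52 had the highest level of each. In fatty acid synthesis 6 of 18 fell and 3 held, among them Scd1, a desaturase, at 97.8 to 211 CPM (median 138) in sarcomatoid tumours, against 1683, 1011 and 185 CPM in adenocarcinomas (log2 fold change -2.70, SE 0.60, adjusted p = 0.00197), and Acsl3, an acyl-CoA ligase, at 30.4 to 59.1 CPM (median 43.97) in sarcomatoid tumours, against 112, 301 and 77.6 CPM in adenocarcinomas (log2 fold change -1.87, SE 0.35, adjusted p = 5.01e-04). Tumour 52 was inside the sarcomatoid range for Scd1. Fasn, the fatty acid synthase, did not pass (log2 fold change -0.35, adjusted p = 0.392). In cholesterol synthesis 7 of 17 fell and none held, with 1 fall left without tumour 52. Ppargc1a, a coactivator of mitochondrial genes, fell and held, at 0.192 to 0.925 CPM (median 0.647) in sarcomatoid tumours, against 22.1, 6.98 and 0.861 CPM in adenocarcinomas (log2 fold change -4.18, SE 0.78, adjusted p = 5.24e-04), with tumour 52 inside the sarcomatoid range. In the Nrf2 and glutathione list 6 of 16 rose and 1 fell, of which the rises of Srxn1, or sulfiredoxin (log2 fold change 2.06, adjusted p = 0.00353), and Akr1b8, an aldo-keto reductase (log2 fold change 2.33, adjusted p = 0.00478), and the fall of Gpx2 held. In the iron list 4 of 13 genes rose and 3 fell, and the rise of Ftl1, the ferritin light chain (log2 fold change 1.32, adjusted p = 0.00238), and the falls of Ltf and Lcn2 held. Ltf, or lactoferrin, and Lcn2, or lipocalin 2, are both secreted by mammary epithelium, Ltf at 0.157 to 21.2 CPM (median 2.20) in sarcomatoid tumours, against 307, 388 and 475 CPM in adenocarcinomas (log2 fold change -6.12, SE 1.52, adjusted p = 0.00449) and Lcn2 at 2.14 to 109 CPM (median 9.82) in sarcomatoid tumours, against 1113, 198 and 1969 CPM in adenocarcinomas (log2 fold change -5.27, SE 1.21, adjusted p = 0.00248).

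Some proliferation genes fell, and each of these calls was lost without at least 1 adenocarcinoma. Of 23 replication genes 9 fell, and of 21 mitosis genes 6, and none of the 15 held. Pcna, the replication clamp, had 65.7 to 119 CPM (median 82.7) in sarcomatoid tumours, against 108, 143 and 193 CPM in adenocarcinomas (log2 fold change -0.80, adjusted p = 0.00282), a call lost without adenocarcinoma 52 (adjusted p = 0.0519). Cdk1, the mitotic kinase, had 68.1 to 154 CPM (median 113) in sarcomatoid tumours, against 114, 502 and 182 CPM in adenocarcinomas (log2 fold change -1.30, adjusted p = 0.00377), a call lost without adenocarcinoma 26.2 (adjusted p = 0.321). Without tumour 26.2, 1 replication and 0 mitosis genes fell. Of 22 chromatin regulators 3 rose and 5 fell, beside 12.1% and 18.5% of all genes tested. Tet1, which oxidises methylated cytosine, had 0.427 to 6.24 CPM (median 0.906) in sarcomatoid tumours, against 24.3, 31.1 and 53.8 CPM in adenocarcinomas (log2 fold change -4.44, SE 0.94, adjusted p = 0.00140). Dnmt3b, a DNA methyltransferase, had 2.16 to 4.87 CPM (median 3.10) in sarcomatoid tumours, against 9.13, 25.4 and 15.7 CPM in adenocarcinomas (log2 fold change -2.33, SE 0.41, adjusted p = 2.96e-04). Both falls held and neither gene overlapped between the groups. Hmga2, a fetal chromatin protein, had 110.0 to 941 CPM (median 172) in sarcomatoid tumours, against 29.7, 1.95 and 0.800 CPM in adenocarcinomas (log2 fold change 4.53, SE 1.40, adjusted p = 0.0171), a call lost without adenocarcinoma 26.2 (adjusted p = 0.0876) or without adenocarcinoma 52 (adjusted p = 0.0639). Among apoptosis regulators Bcl2, the survival gene, had 13.02 to 29.04 CPM (median 16.6) in sarcomatoid tumours, against 74.7, 51.6 and 37.5 CPM in adenocarcinomas (log2 fold change -1.63, SE 0.33, adjusted p = 8.86e-04). Bik, a killer protein, had 0.424 to 1.79 CPM (median 0.894) in sarcomatoid tumours, against 8.32, 3.13 and 17.2 CPM in adenocarcinomas (log2 fold change -3.22, SE 0.66, adjusted p = 0.00104). Bax did not pass (log2 fold change 0.35, adjusted p = 0.154).

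Several programmes showed few or no calls at a background of 30.6% of genes called in either direction. None of 12 heat shock, 11 skeletal muscle, 6 mitochondrially encoded, 3 haemoglobin and 15 ribosomal protein genes passed. Of 15 genes of the unfolded protein response 1 rose, of 16 nuclear respiratory chain genes 1, of 17 glycolysis genes 2, of 16 interferon response genes 1 and of 18 NF-kB and cytokine genes 1 (Ptgs2), with no fall in any of these lists. Of these 6 rises that of Sdhb, a succinate dehydrogenase subunit, held (log2 fold change 1.07, adjusted p = 0.00503). The glycolysis count depended on the adenocarcinomas used: 8 of the 17 genes rose without tumour 52, and 0 without 7.2 or without 26.2. Without tumour 52, 4 NF-kB and cytokine genes and 3 genes of the unfolded protein response rose. Hspa5, the chaperone of the endoplasmic reticulum, did not pass (log2 fold change 0.29, adjusted p = 0.215), nor did Il6, an inflammatory cytokine (log2 fold change 2.85, adjusted p = 0.0863). A p-value that misses the threshold does not show that these genes were at equal levels.

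The same fit also set the sarcomatoid tumours against 9 carcinosarcomas of this genotype, mixed tumours labelled 2 to 98% epithelial. There 1203 genes were higher (7.45%) and 2265 lower in sarcomatoid tumours. The 2 contrasts share the sarcomatoid libraries, so values are given side by side. Rab25 averaged 1.12 CPM in sarcomatoid tumours and 31.04 CPM in carcinosarcomas (log2 fold change -4.78, adjusted p = 0.00143), and Sox10 averaged 2.03 CPM in sarcomatoid tumours and 255 CPM in carcinosarcomas (log2 fold change -6.97, adjusted p = 4.37e-04). Slit2 averaged 175 CPM in sarcomatoid tumours and 84.03 CPM in carcinosarcomas (log2 fold change 1.06, adjusted p = 0.0128). All 3 differences kept the direction seen against adenocarcinomas. Ereg averaged 143 CPM in sarcomatoid tumours and 57.2 CPM in carcinosarcomas, without passing (log2 fold change 1.32, adjusted p = 0.203), and Vegfc averaged 58.8 CPM in sarcomatoid tumours and 25.6 CPM in carcinosarcomas (log2 fold change 1.20, adjusted p = 0.0725). Against 5 adenocarcinomas of the KP genotype 521 genes were higher (3.23%) and 2217 lower (13.7%), and 1730 higher (10.7%) and 3153 lower (19.6%) of 16114 genes tested without the KP tumour 90.01A named above.

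**Figure D4:**
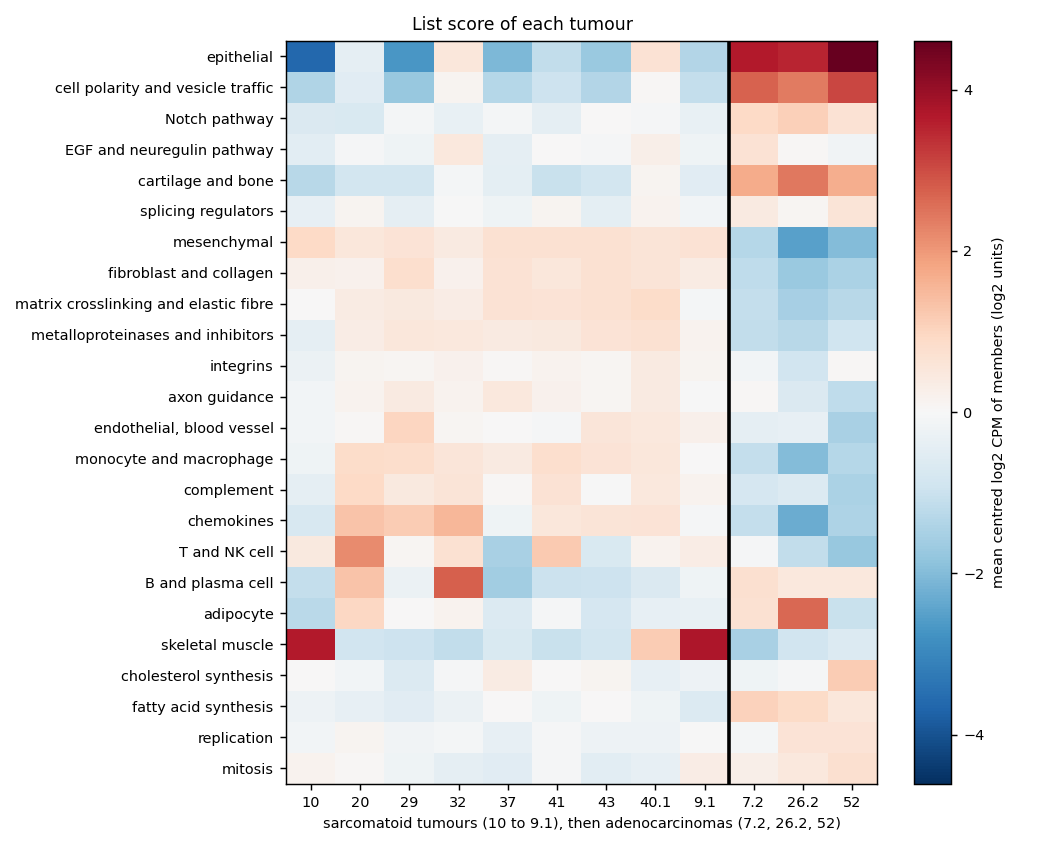
List score of 24 gene lists in each of 9 sarcomatoid tumours (left of the line) and 3 adenocarcinomas (right), where a score is the mean over members of log2 CPM centred over the 12 tumours, in log2 units (red above the mean, blue below). In the epithelial, polarity, Notch and cartilage rows all 9 sarcomatoid scores lie below the 3 adenocarcinoma scores, while the skeletal muscle score is high in tumours 10 and 9.1, the adipocyte score in tumour 26.2 and the cholesterol score in tumour 52.

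The sarcomatoid tumours also differed among themselves. Genes were counted as standing out in 1 tumour where its level was at least 10 CPM and at least 8-fold above the next of the 9, a rule chosen after the values were seen. Tumour 9.1 had 54 such genes and tumour 10 had 45, against 9 each in tumours 29 and 32, 2 each in 37 and 43, 1 in 20 and none in 40.1 and 41. In tumour 9.1 they included genes known from osteoclasts, the bone-resorbing cells of the macrophage lineage. Mmp9, a gelatinase, had 8943 CPM there and at most 813 CPM in the other 8, and Ctsk, or cathepsin K, had 6831 and at most 689.7 CPM. Acp5, the tartrate-resistant acid phosphatase, had 4771 CPM against at most 486 CPM, and Ocstamp, a fusion protein of osteoclasts, had 256 against at most 14.3 CPM. Mmp9 and Ctsk rose in the comparison with adenocarcinomas (log2 fold change 5.97, adjusted p = 0.0346 and log2 fold change 5.41, adjusted p = 0.0136). The Mmp9 call was lost without tumour 9.1 (adjusted p = 0.0598) and without each of the 3 adenocarcinomas in turn (highest adjusted p = 0.132), and the Ctsk call without adenocarcinoma 26.2 (adjusted p = 0.0730). The adenocarcinomas had at most 38.8, 38.03, 88.98 and 1.84 CPM of these 4 genes.

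A pair of genes on chromosome 6 also stood out in tumour 9.1. Etnk1, an ethanolamine kinase, had 4691 CPM there and at most 353 CPM in the other 8 sarcomatoid tumours. Bcat1, a branched-chain aminotransferase, had 2005 CPM and at most 265 CPM in the others. Golt1b, Recql and Ldhb on the same chromosome had 1.11, 1.15 and 0.743 times the median of the other 8. DNA copy number was not analysed here.

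Tumour 10 differed in another region and in neural and homeobox genes. Yap1, the Hippo pathway effector on chromosome 9, had 306 CPM there and 6062 to 12624 CPM in the other 8 sarcomatoid tumours, against 270.3, 362 and 233 CPM in adenocarcinomas. Yap1 did not pass with all 9 tumours (log2 fold change 4.81, adjusted p = 0.0542), with an adjusted p of 0.0445 without tumour 10. Birc2, an inhibitor of apoptosis, had 36.1 CPM in tumour 10, at least 812 CPM in the other 8 and 45.6, 53.98 and 66.8 CPM in adenocarcinomas. Genes that stood out upward in tumour 10 included Crabp1, a retinoic acid binding protein, at 3041 CPM and at most 243 CPM in the other sarcomatoid tumours. Nefl, a neurofilament gene, had 178 CPM and at most 3.40 CPM, and Hoxb9, a homeobox gene, had 64.3 CPM and at most 1.07 CPM. The mast cell gene Cpa3 had 59.2 CPM there and at most 5.47 CPM in the others. Elsewhere, tumour 32 had 639 CPM of the immunoglobulin gene Igkc and tumour 43 had 952 CPM of the growth factor gene Pdgfd, with at most 158 and 31.3 CPM in the other sarcomatoid tumours. Pdgfd rose in the comparison with adenocarcinomas (log2 fold change 4.75, adjusted p = 0.0371), a call lost without adenocarcinoma 26.2 (adjusted p = 0.140) or without adenocarcinoma 52 (adjusted p = 0.116) or without sarcomatoid tumour 43 (adjusted p = 0.114).

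**Figure D5:**
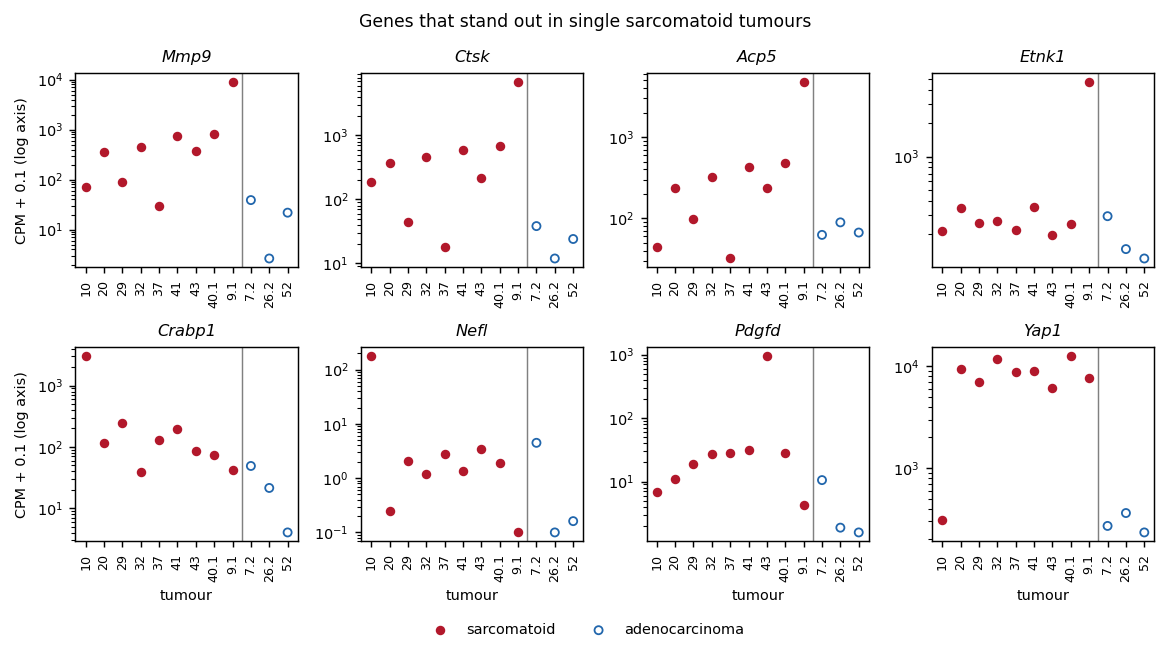
Level of 8 genes in each sarcomatoid tumour (left of the line) and adenocarcinoma (right), in CPM plus 0.1 on a log axis. Mmp9, Ctsk, Acp5 and Etnk1 are highest in tumour 9.1, Crabp1 and Nefl in tumour 10 and Pdgfd in tumour 43, and Yap1 is low among sarcomatoid tumours in tumour 10.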

How the data were processed

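Total RNA was extracted from mammary tumours with TRIzol and made into stranded libraries of polyadenylated RNA, per the labels' protocols. The authors deposited raw counts per gene, made with cutadapt 2.10, STAR 2.7.3a and featureCounts 2.0.0 on genome build mm10, per the submitters' processing notes; whether counting used the strand was not stated. They also deposited log2 normalized values, for which the notes name DESeq with no version; these served only as an alternative. A mouse of origin is given for no tumour, so samples of a group may share one.

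The counts of the 29 libraries of run 5625, in 5 groups, were fitted together with edgeR 4.0.16 (R 4.3.3) after filterByExpr with a minimum count of 10 and TMM scaling, which left 16147 of 39438 genes. The quasi-likelihood test set 9 sarcomatoid tumours against 3 adenocarcinomas, with Benjamini-Hochberg adjustment over all genes tested and a threshold of 0.05. Each SE is the size of the log2 fold change divided by the square root of F. CPM use the same scaling; floors take 3 counts and, like all ranges of counts, cover counting error only. Gene names are those of the table, in which 24 symbols had been turned into dates (0.169% of counts) and stayed unnamed. Promoter windows come from RefSeq on GRCm38.p6, matched by symbol.

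The 70 gene lists (1198 members, 1181 found and 1143 tested) and the genes to name were chosen with earlier results of these data known, and no list was tested as a set. Named by rule were Brca1, Trp53, in each direction the 15 most changed genes whose call held without each adenocarcinoma, whose groups did not overlap and whose mean log2 CPM reached 1 (markers of epithelium, mesenchyme and fibroblasts and predicted genes aside), up to 4 called and 2 uncalled members of a list, members whose call was lost, and the 5 smallest adjusted p-values per direction; other names were chosen after their values were seen. Some genes that met the rule are not reported here. Alternatives were RLE and upper-quartile scaling, no filter or a minimum count of 50, fits of 12 or 73 libraries, DESeq2 1.42.0, limma 3.58.1 on the deposited log2 values, a minimum log2 change of 1, and leaving out or isolating tumours; the fits without sarcomatoid tumours 10 and 9.1 together and without KP tumour 90.01A were chosen after seeing the data. The test was also run on simulated counts of 16147 genes.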

Additional observations from a re-analysis of the deposited data

Results flagged for a closer look

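In 38 of 203 named genes 1 sarcomatoid tumour stood apart from the other 8: the gap between it and its nearest neighbour, on the scale of log2(CPM + 1), took up a larger share of the range over the 9 tumours than Dixon's critical value for 9 samples. Chance flags about 1 group in 20, and genes named because they varied among tumours are among those examined. The value after each gene is that share of the range.

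Tumour 10 stood apart in 17 genes. It was high for Bcl2 (0.592), Cpa3 (0.577), Crabp1 (0.582), Hmga2 (0.704), Hoxb9 (0.877), Nefl (0.714) and Tet1 (0.518). It was low for Birc2 (0.764), Ephb3 (0.54), Ephb6 (0.636), Erbb2 (0.616), Esrp2 (0.502), Fabp4 (0.596), Itga3 (0.672), Rab11fip1 (0.543), Vcan (0.503) and Yap1 (0.803). Those low in tumour 10 include Yap1 and Birc2, neighbours on the chromosome, and the epithelial splicing gene Esrp2.

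Tumour 9.1 stood apart in 11 genes. It was high for Abcb4 (0.611), Bcat1 (0.772), Ctsa (0.503), Edar (0.772), Etnk1 (0.817), Hexa (0.657), Nrp2 (0.663), Ocstamp (0.54), Sdhb (0.757) and Trp53 (0.54). It was low for Robo1 (0.622). Bcat1 and Etnk1 are the chromosome 6 genes described above.

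Tumour 40.1 was high for Gm12860 (1), Grhl3 (0.724) and Krt79 (0.622), of which Gm12860 was detected by a single count. Tumour 20 was high for Alox12e (0.814) and Art4 (0.505), and tumour 29 for Hey1 (0.509) and Robo4 (0.601). Tumour 32 was high for Sostdc1 (0.513), tumour 37 for Sufu (0.628) and tumour 43 for Pdgfd (0.65). Some of the gaps in this section lie near the floor. The outlying level was 0.504 CPM for Alox12e, 0.144 CPM for Art4 and 0.356 CPM for Edar. For Grhl3 and Sostdc1 it was 0.619 and 0.647 CPM. No explanation of these values was tested.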

How the results depend on the processing

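The choice of adenocarcinomas moved the counts most. Leaving out 1 adenocarcinoma left 695 to 1593 genes that rose and 1795 to 2667 that fell: 1285 rose without 7.2 and 695 without 26.2, and 1795 fell without 26.2. With a single adenocarcinoma, which is then assumed to vary like the other groups, 116 rose and 962 fell against 7.2, 756 rose against 26.2, and 180 rose and 824 fell against 52; the median of all genes shifted by 0.135 against 7.2 and 0.147 against 52, and by less than 0.1 elsewhere. Without 1 sarcomatoid tumour at a time 1807 to 1999 genes rose and 2622 to 3073 fell. Under RLE or upper-quartile scaling, no filter or a minimum count of 50, fits of 12 or 73 libraries, DESeq2, and without sarcomatoid tumours 10 and 9.1 together (chosen after seeing the data), 1384 to 2687 rose and 2612 to 3223 fell. When calls also needed a log2 change of 1 or more in size, 1494 rose and 2187 fell.

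Of 5272 combinations of a named gene and 1 of 26 alternatives, 4846 kept direction and call, 353 lost the call, 41 gained it and 32 turned direction. Of 203 genes named, 128 passed in every alternative other than those against a single adenocarcinoma. Fabp4, Lama1 and Peg3 are the called genes that turned. The log2 fold changes that turned were, against 7.2 alone, -0.00069 for Axin2, -0.49 for Egfr, 1.59 for Fabp4, 0.55 for Itga3, 0.056 for Pard3, 0.061 for Recql and 2.19 for Vegfa; against 26.2 alone, 0.39 for Fasn and 1.57 for Vegfa; and against 52 alone, 3.77 for Adipoq, -0.045 for Hspa5, 2.04 for Lama1 and 0.12 for Peg3. Without sarcomatoid tumours 10 and 9.1 together they were -0.20 for Cpa3, -1.67 for Hoxb9 and 0.22 for Vegfa. DESeq2 gave -1.61 for Hoxb9 and 0.0097 for Vegfa, RLE scaling 0.0097 for Vegfa, and limma 0.57 for Vegfa. Leaving out 1 tumour at a time gave ranges that cross 0, -3.01 to 0.060 for Adipoq, -0.036 to 4.55 for Cpa3, -0.038 to 1.505 for Egfr, -1.62 to 4.11 for Hoxb9, -0.60 to 0.24 for Itga3, -0.040 to 0.30 for Trp53 and -0.51 to 1.84 for Vegfa. The cause of these shifts was not tested.

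No paired analysis was possible because the sarcomatoid tumours and the adenocarcinomas share no replicate number. On data simulated for this comparison, a change of 2-fold was recovered for 4% of 50 genes and of 4-fold for 68%. Recovery was 90% at 8-fold and 88% at 16-fold. Far fewer genes were changed in the simulation than were called in the real data, which makes its adjusted threshold stricter. It therefore sets no detection limit for this comparison. In the real fit smaller changes also passed: 1494 of the 1959 rises and 2187 of the 2986 falls had a log2 change of 1 or more in size.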
